A study of Rattus norvegicus with 20 samples.

Results

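The genes described here were the integrin subunits, the laminin chains and the other proteins that join cells to the basement membrane and to fibronectin, measured in rat vocal folds (VFs) after injury. Members were taken by gene symbol: every probe set whose symbol starts with Itga, Itgb, Lama, Lamb or Lamc, together with the nidogens, perlecan, agrin, dystroglycan, fibronectin, vitronectin and syndecans 1, 2 and 4. This gave 36 probe sets for 36 genes, of 15049 probe sets that carried 1 gene name and 24871 on the array. They were 11 integrin alpha subunits, 7 integrin beta subunits, 4 genes that are named after an integrin beta gene without being a subunit, 6 laminin chains, nidogen 2 and agrin, dystroglycan, fibronectin and vitronectin, and 3 syndecans. Nidogen 1, perlecan and several integrin and laminin chains that the rule would take had no named probe set here and were not analysed here.

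The study followed healing of the injured VF over time. A total of 20 male Sprague-Dawley rats gave 1 array each: 5 animals were killed 1 week, 5 were killed 4 weeks and 5 were killed 8 weeks after VF injury, and 5 were uninjured controls. The methods give 14 to 16 weeks as the age of the rats that underwent injury. They do not state the age at killing, which may differ with the time after injury. Injury meant that the lamina propria was stripped off the thyroarytenoid muscle. The methods describe injury on 1 side or on both, whereas the folds of both sides were dissected, so an injured sample may hold uninjured tissue. Controls were left without treatment, and no sham-operated group is described. Each value is a log2 signal, on which a difference of 1 is a 2-fold change.

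Integrins are pairs of 1 alpha and 1 beta chain that span the cell membrane and tie the matrix outside to the cytoskeleton inside. The alpha 5, alpha 8 and alpha 4 subunits with beta 1, and alpha V with beta 3, beta 5 or beta 6, bind fibronectin or related matrix proteins, while beta 2 and beta 7 integrins are carried by leukocytes. Laminins are cross-shaped trimers of an alpha, a beta and a gamma chain that form the sheet of the basement membrane, which nidogens and heparan sulphate proteoglycans link to its collagen network. In the VF such a sheet lies beneath the stratified epithelium, and others surround vessels and the fibres of the thyroarytenoid muscle. Bulk RNA from whole folds cannot tell a change in the number of cells of a type from a change in RNA per cell, and this holds for every value below.

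Of the 10 members that passed the test, 4 genes that were higher at 1 week had an upstream sequence at the annotated start of the gene in the RefSeq table, and the 250 bases before the start of 3 of them are shown as examples from the genes called higher at 1 week. They are written 5′ to 3′ on the gene's own strand (RefSeq, rat build GRCr8), with matches to the motifs searched in capitals. Itga5 lies on the minus strand at chr7:136381306-136381555, Itga8 on the minus strand at chr17:80410634-80410883 and Itgbl1 on the plus strand at chr15:107186542-107186791.
Itga5: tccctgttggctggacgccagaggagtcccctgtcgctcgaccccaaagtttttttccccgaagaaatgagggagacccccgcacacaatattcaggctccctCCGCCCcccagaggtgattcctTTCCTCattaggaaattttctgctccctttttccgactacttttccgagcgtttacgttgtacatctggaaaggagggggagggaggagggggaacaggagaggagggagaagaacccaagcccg
Itga8: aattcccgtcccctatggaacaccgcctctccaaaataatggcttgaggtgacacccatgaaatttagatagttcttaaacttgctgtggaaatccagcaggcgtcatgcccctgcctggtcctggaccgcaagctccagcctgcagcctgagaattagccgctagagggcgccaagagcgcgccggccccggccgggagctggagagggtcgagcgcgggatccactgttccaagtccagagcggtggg
Itgbl1: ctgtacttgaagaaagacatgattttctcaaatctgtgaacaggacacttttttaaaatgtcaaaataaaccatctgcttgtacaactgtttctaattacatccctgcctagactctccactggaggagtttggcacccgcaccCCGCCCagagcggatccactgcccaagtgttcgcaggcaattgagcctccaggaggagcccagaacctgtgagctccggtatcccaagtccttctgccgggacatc
Both strands were searched for the GC box (GGGCGG), an ETS core (GAGGAA), the AP-1 site (TGANTCA) and the CAGA box (CAGACA). A GC box on the opposite strand began 147 bases upstream of Itga5 and 106 bases upstream of Itgbl1, and an ETS core on the opposite strand began 125 bases upstream of Itga5. The windows of Itga8 and of Itgb5, the fourth gene, held none of the 4 motifs. Among 33469 such windows in the table, 30.5% held a GC box, 23.3% an ETS core, 6.34% an AP-1 site and 17.2% a CAGA box. These matches describe the letters only.

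The array values came with 2 features that touch every comparison with the controls. The manufacturer's 18 hybridization control probe sets, whose targets are added in the laboratory, averaged 10.12 ± 0.16 on the 15 injured arrays and 9.25 ± 0.30 on the 5 control arrays (SD), with no overlap between 9.94 to 10.44 and 8.84 to 9.59. Because this difference runs along injury against control, it cannot be told apart from the injury, and with it as a covariate 0 members were called in any comparison with the controls (82, 10 and 9 of all 15049 probe sets at 1, 4 and 8 weeks). With the covariate some estimates at 1 week moved away from 0 (Itgb6 from -0.88 to -1.77) and others towards it (Itgb3 from 0.53 to 0.09). Because the covariate runs along the injury, the loss of calls does not assign the differences to either. The hybridization control ranges in the 3 injured groups overlapped. The 23 background probe sets were also brighter after injury: their mean was 3.32 on injured arrays (3.17 to 3.61) and 2.70 on control arrays (2.6005 to 2.90), and the brightest of them read 6.14 to 7.14 on injured arrays and 4.995 to 5.70 on control arrays, with no overlap in either. The arrays have no detection calls. By group means, 15 of the 36 members lay below the brightest background probe set in all 4 groups. On every array the median over all probe sets also lay below the brightest of the 23, so this does not set the members apart from the array. Single arrays of some of the 15 members read above it: Itgal read 7.41 in 4-week replicate 2, where the brightest background probe set read 6.33. The called members among these 15 were Itgal, Itgb7, Itgb3, Nid2 and Itga8, and in each of them a difference from control cannot be told apart from the brighter background. The means of Itga5 at 1 week (6.52) and of Itgb6 at 1 and 4 weeks (6.39 and 6.42) also lay within the injured range of the brightest background probe set. Their control means (6.02 and 7.26) lay above its control range. The part of the background in these calls was not tested. Medians ranged from 4.83 to 4.92 on injured arrays and from 4.58 to 4.94 on control arrays, the lowest being control replicate 3.

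Against control, 8 of the 36 members passed the test at 1 week, 4 at 4 weeks and 3 at 8 weeks (limma, adjusted p under 0.05 over all 15049 named probe sets). At 1 week 7 were higher and 1 was lower, 22.2% of the members, beside 21.3% of all probe sets (11.2% higher and 10.2% lower). At 4 weeks 3 were higher and 1 was lower, 11.1% of the members beside 13% of all probe sets (7.52% higher and 5.46% lower). At 8 weeks 3 were higher and 0 were lower, 8.33% of the members beside 11.6% of all probe sets (6.96% higher and 4.65% lower). Counting both directions, the members' shares were near those of the whole array. By direction, 19.4% of the members were higher and 2.78% were lower at 1 week. Without control replicate 3 the split was 2 higher and 4 lower at 4 weeks and 2 higher and 3 lower at 8 weeks. Quantile normalization and median centring each gave 3 higher and 3 lower at 4 weeks, and at 8 weeks they gave 5 higher and 1 lower (quantile) and 4 higher and 2 lower (centring). A moderated F test over the 3 comparisons called 5 members, 13.9%, beside 15.4% of all probe sets: Fn1, Itgb7, Itgb3, Nid2 and Itga8. The 3 comparisons share the 5 control arrays, and the counts depended on single arrays. The 1-week count was 3 without 1-week replicate 2 and 4 without control replicate 2, the 4-week count was 2 without control replicate 2 or 4, and the 8-week count was 7 without 4-week replicate 2.

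**Figure D1:**
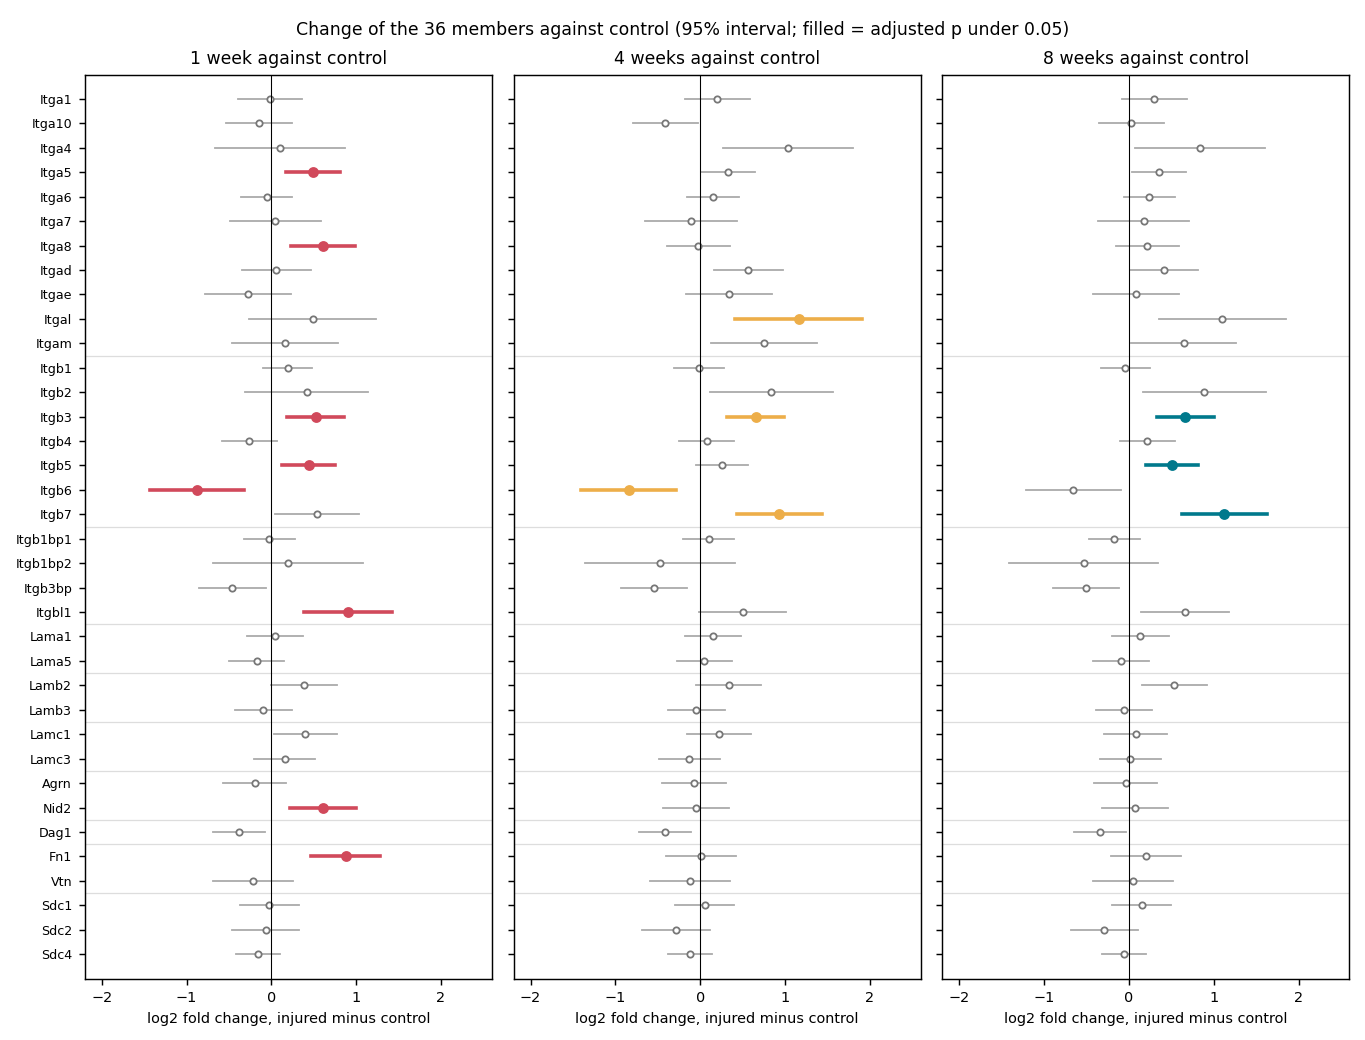
Log2 fold change (x axis, injured minus control) of each of the 36 members (y axis, grouped by role) at 1, 4 and 8 weeks, with 95% confidence intervals from limma. Filled coloured points passed the test, 8 in the left panel, 4 in the middle and 3 in the right, and Itgb6 was the only gene among them below 0.

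The 7 members higher at 1 week were Itgbl1, Fn1, Nid2, Itga8, Itgb3, Itga5 and Itgb5, in falling order of their difference from control. Fn1 encodes fibronectin, the main adhesive protein of the provisional wound matrix (probe set TC0900002193.rn.2). It read 10.58, 10.34, 10.69, 10.10 and 10.62 in the 5 rats at 1 week, against 9.58, 9.64, 8.90, 10.01 and 9.85 in the 5 controls. Every 1-week array lay above every control array, and the mean was 0.88 higher (SE 0.20, 95% interval 0.46 to 1.29, limma adjusted p = 0.00358), a 1.83-fold change. The call held with each of the 20 arrays left out in turn, when the difference ran between 0.70 and 0.98.

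Fn1 passed the test at 1 week and at neither of the later times. At 4 weeks Fn1 read 9.94, 9.34, 9.82, 9.50 and 9.43, and at 8 weeks 9.75, 9.21, 9.87, 10.15 and 9.98. Both groups overlapped the controls, with differences from control of 0.01 (95% interval -0.40 to 0.42) at 4 weeks and 0.20 (95% interval -0.21 to 0.61) at 8 weeks. Fn1 was also the member with the smallest p between injured groups: its log2 change at 4 weeks against 1 week was -0.86 (SE 0.20), with no overlap, and it missed the threshold (limma adjusted p = 0.0925). Vitronectin (Vtn), the other adhesive glycoprotein of the set and a plasma protein made mainly in liver, differed from control by -0.22, -0.12 and 0.05 at 1, 4 and 8 weeks, and none of these passed the test.

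Itga5 encodes the alpha chain of the classical fibronectin receptor (TC0700004001.rn.2). It read 6.60, 6.69, 6.66, 6.10 and 6.54 at 1 week, against 6.01, 5.94, 5.70, 6.16 and 6.31 in controls. Only 1-week replicate 4 fell within the control range, and the mean was 0.49 higher (SE 0.15, limma adjusted p = 0.0241). The call was lost without control replicate 2 or 1-week replicate 1, 2 or 3 (limma adjusted p at most 0.0633). Itga8, whose product pairs with beta 1 and binds nephronectin and fibronectin (TC1700002243.rn.2), read 4.26, 4.57, 5.16, 4.79 and 4.39 at 1 week, against 3.84, 4.05, 3.97, 4.51 and 3.74 in controls. It was 0.61 higher at 1 week (SE 0.18, limma adjusted p = 0.0186), with 2 of the 1-week arrays inside the control range, and the call was lost without 1-week replicate 3 (limma adjusted p = 0.0577). At 4 and 8 weeks Itga5 differed from control by 0.33 and 0.36 and Itga8 by -0.02 and 0.22, and neither passed the test.

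The beta 1 chain that these alpha chains share was measured by Itgb1. It read 8.76 to 9.32 at 1 week, against 8.27 to 8.98 in controls, and its difference of 0.19 did not pass the test (SE 0.14, limma adjusted p = 0.349). At 4 and 8 weeks Itgb1 differed from control by -0.01 and -0.04, with 95% intervals of -0.31 to 0.28 and -0.33 to 0.25.

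A pair of beta chains that join alpha V were called higher at 1 week and again later, Itgb3 at 4 and 8 weeks and Itgb5 at 8 weeks. Itgb3, the beta chain of the vitronectin receptor and of the platelet fibrinogen receptor (TC1000001737.rn.2), was the 1 member called at all 3 times. It read 5.36, 5.93, 5.43, 5.39 and 5.43 at 1 week, against 5.002, 4.75, 4.66, 5.49 and 5.01 in controls. At 4 weeks it read 5.78, 5.49, 5.46, 5.99 and 5.46, and at 8 weeks 5.47, 5.65, 5.58, 5.96 and 5.59. All injured arrays lay above 4 of the 5 controls, and control replicate 4 alone reached into the injured range.

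The Itgb3 differences from control were 0.53, 0.65 and 0.67 at 1, 4 and 8 weeks (SE 0.16, limma adjusted p = 0.0238, 0.011 and 0.0112). At 1 week the call was lost without 1-week replicate 2, the highest array of its group (limma adjusted p = 0.0807), and without control replicate 2, whereas at 4 and 8 weeks it held with each array left out. Among 4 measured platelet genes Pf4, platelet factor 4, was higher at all 3 times, by 1.91, 1.52 and 1.26, and Gp9, Ppbp and Treml1 made no call at any of the 3 times. The mean of the 4 ranged from 4.62 to 4.92 at 1 week, 4.53 to 5.07 at 4 weeks and 4.30 to 4.75 at 8 weeks, against 4.00 to 4.44 in controls, so that it overlapped the controls at 8 weeks only. The part of platelets in the Itgb3 signal was not tested.

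Itgb5, the beta chain of a vitronectin receptor found on many cell types (TC1100001723.rn.2), read 7.40, 7.44, 7.19, 7.17 and 7.69 at 1 week, against 6.97, 7.08, 6.54, 7.17 and 6.94 in controls. At 8 weeks it read 7.37, 7.30, 7.44, 7.72 and 7.39. Neither group overlapped the controls, although the lowest 1-week array stood only just above the highest control. The differences were 0.44 (limma adjusted p = 0.0389) at 1 week and 0.51 (limma adjusted p = 0.0314) at 8 weeks, both with an SE of 0.15. At 4 weeks the difference of 0.26 did not pass (limma adjusted p = 0.268), with 4-week replicate 2 at 6.79. The Itgb5 calls were lost in 6 of the 20 settings that leave out 1 array at 1 week, among them without control replicate 3 or 1-week replicate 5, and in 4 of 20 at 8 weeks.

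Itgbl1 encodes a secreted protein with repeats like those of beta integrins and is not a receptor subunit (TC1500001218.rn.2). It read 7.29, 7.57, 7.36, 6.72 and 7.06 at 1 week, against 6.33, 6.04, 6.12, 6.81 and 6.19 in controls, with only 1-week replicate 4 below the highest control. The difference of 0.90 (SE 0.25, limma adjusted p = 0.0132) was a 1.87-fold change and kept its call with each array left out. At 4 weeks Itgbl1 spread from 5.80 to 7.44 and at 8 weeks from 6.54 to 7.40, with differences of 0.50 and 0.66 that did not pass (limma adjusted p = 0.19 and 0.0895).

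Nid2 encodes nidogen 2, which links laminin to collagen IV in the basement membrane (TC1500001288.rn.2). It read 5.92, 5.98, 5.94, 5.13 and 5.28 at 1 week, against 4.90, 4.68, 5.31, 5.40 and 4.90 in controls. Replicates 1, 2 and 3 lay above all controls and the other two lay among them, and the mean difference was 0.61 (SE 0.19, limma adjusted p = 0.0228). At 4 and 8 weeks Nid2 was -0.05 and 0.07 from control. The 1-week call was lost in 5 of the 20 settings that leave out 1 array, with a limma adjusted p of at most 0.073.

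**Figure D2:**
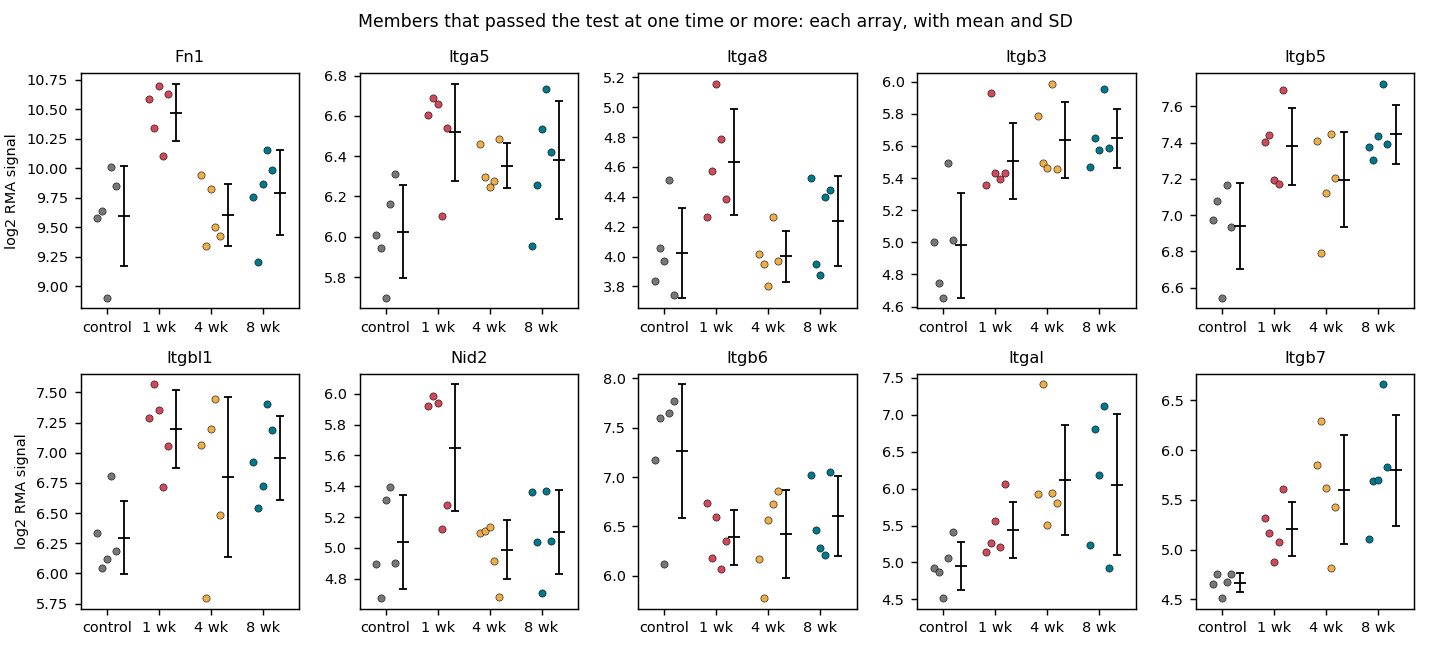
Log2 signal (y axis, each panel with its own scale) of the 10 members that passed the test in any comparison, for the 5 arrays of the control group and of each time after injury (x axis), with the mean and SD beside the points. Fn1 at 1 week lies wholly above its controls (10.10 to 10.69 against 8.90 to 10.01), Itgb6 lies lower after injury, and Itgal and Itgb7 are highest and most spread at 4 and 8 weeks.

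Some fibroblast markers were also higher at 1 week. Of 7 measured, 4 were higher at 1 week: Col1a1 by 1.80, Lum by 1.37, Fap by 1.03 and Col1a2 by 0.93. The others, Pdgfra, Pdgfrb and Dcn, made no call at 1 week. Among all probe sets 11.2% were higher at 1 week. The mean of the 7 ranged from 8.79 to 9.47 at 1 week and from 8.16 to 8.80 in controls. At 4 and 8 weeks 2 and 1 of the 7 were higher. The part of fibroblast number in the 1-week values of the 7 members called higher was not tested. The 3 genes outside the set whose values ran most closely with Fn1 over the 20 arrays were Mfap5 (Pearson r = 0.911), Fbn1 (0.903) and Sparc (0.892), all of them matrix proteins. Within groups the same correlations were 0.795, 0.775 and 0.818. These r values are descriptions over arrays that share their groups.

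Other ligands of integrins and other basement membrane proteins were read from lists of the pathway. Of 18 measured ligands, 4 were higher and 1 was lower at 1 week, beside 11.2% higher and 10.2% lower among all probe sets. At 4 and 8 weeks 13% and 11.6% of all probe sets passed. The counts of ligands were not tested against these shares. Postn, periostin, a ligand of alpha V integrins, was higher by 2.53, Spp1, osteopontin, by 1.57, Fbn1, fibrillin 1, by 1.13 and Tgfb3, a cytokine whose latent form integrins bind, by 0.80. The ligand lower at 1, 4 and 8 weeks was Cdh1, E-cadherin, which the integrin of alpha E and beta 7 binds. At 4 weeks 0 of the 18 were higher, and at 8 weeks Icam2, a ligand of the leukocyte integrin of alpha L and beta 2, was higher by 0.71. Postn was lower at 4 and at 8 weeks than at 1 week, by -1.83 and -2.38, and Spp1 was lower at 8 weeks than at 1 week, by -1.28.

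Among 4 measured collagens of the basement membrane, Col4a1, a chain of collagen IV, was higher by 1.05 and Col18a1, collagen XVIII, by 0.82 at 1 week. Col18a1 was the 1 of the 4 that was higher at 4 and 8 weeks, by 0.58 and 0.59. Of 8 other basement membrane proteins, 3 were higher at 1 week: Pxdn, the peroxidase that crosslinks collagen IV, by 1.49, Sparc by 0.74 and Smoc2 by 0.53. None of the 8 passed the test against control at 4 or 8 weeks, and Pxdn and Sparc were lower at 8 weeks than at 1 week, by -1.11 and -0.83. Among all probe sets 11.2%, 7.52% and 6.96% were higher than control at 1, 4 and 8 weeks. The counts in these short lists were not tested against those shares.

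Of 18 measured adaptors that link integrins to the cytoskeleton, Flna, filamin A, was higher at 1, 4 and 8 weeks by 0.53, 0.59 and 0.64. Lims1, the adaptor PINCH1, was lower by -0.86, -0.72 and -0.70, and Ptk2, focal adhesion kinase, by -0.74, -0.64 and -0.62. Src, the kinase that works with it, was higher at 4 and 8 weeks by 0.43 and 0.51. The other 14 adaptors made no call. The shares of all probe sets that passed were 21.3%, 13% and 11.6% at 1, 4 and 8 weeks, and the adaptor counts were not tested against them. The median over the 18 was -0.01, -0.07 and 0.01, beside 0.02, 0.04 and 0.04 over all probe sets.

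Of the 7 integrin subunits of leukocytes, 0 passed the test at 1 week, 2 at 4 weeks and 1 at 8 weeks. The shares of all probe sets were 21.3%, 13% and 11.6%, and with 7 genes these counts do not set the subunits apart from the array. Itgal, the alpha L chain of the lymphocyte integrin LFA-1 (TC0100002629.rn.2), read 5.93, 7.41, 5.50, 5.93 and 5.81 at 4 weeks, against 4.92, 4.87, 4.52, 5.06 and 5.41 in controls. The groups did not overlap, and the mean was 1.16 higher (SE 0.36, 95% interval 0.41 to 1.91, limma adjusted p = 0.0377), a 2.24-fold change. Replicate 2 stood far above the rest of its group, and without it the difference was 0.84 and the call was lost (limma adjusted p = 0.115). It was also lost without control replicate 1, 2, 3 or 4.

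At 8 weeks Itgal read 5.24, 6.81, 6.18, 7.11 and 4.93. Replicates 2, 3 and 4 were high, whereas replicates 1 and 5 lay within the control range, and the difference of 1.10 missed the threshold (SE 0.36, limma adjusted p = 0.0511). At 1 week Itgal read 5.14, 5.26, 5.56, 5.20 and 6.06, a difference of 0.49 (limma adjusted p = 0.354).

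Itgb7, the beta chain of the gut-homing integrin of lymphocytes and of the receptor for E-cadherin (TC0700003967.rn.2), had the largest difference of the 3 members called at 8 weeks. It read 5.85, 6.29, 5.62, 4.82 and 5.43 at 4 weeks and 5.11, 5.69, 5.70, 6.66 and 5.83 at 8 weeks, against 4.65, 4.75, 4.51, 4.67 and 4.76 in controls. Every injured array lay above every control at both times, as did the 1-week arrays at 5.31, 5.17, 4.88, 5.07 and 5.61. The controls were close together, and the injured groups were spread. The differences were 0.93 at 4 weeks and 1.13 at 8 weeks (SE 0.24, limma adjusted p = 0.0136 and 0.00511), 1.91-fold and 2.18-fold. At 1 week the difference of 0.54 did not pass (limma adjusted p = 0.113), although it did with array weights and with only the 2 groups compared in the fit.

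The Itgb7 calls held with each single array left out, but the 4-week call was lost when control replicate 3 and 4-week replicate 2 were left out together. The genes outside the set that ran most closely with Itgb7 over the 20 arrays were Myo9b (r = 0.891), Rfc5 (0.89) and Ppp4c (0.867), with 0.778, 0.807 and 0.694 within groups. For Itgb3 they were Pip4p1 (0.866), Igfbp4 (0.865) and Snrpd2 (0.862).

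The other 5 leukocyte integrins did not pass the test, with differences above 0 at 4 and 8 weeks. Itgb2, the beta chain shared by all leukocyte beta 2 integrins, read 6.39, 7.64, 5.97, 6.07 and 5.39 at 4 weeks and 5.67, 6.96, 6.55, 7.01 and 5.51 at 8 weeks, against 5.45, 5.18, 4.83, 5.70 and 6.09 in controls. Its differences were 0.84 and 0.89 (SE 0.35, limma adjusted p = 0.115 and 0.104). Itga4, the alpha 4 chain that pairs with beta 1 or beta 7, differed by 1.04 and 0.84 (limma adjusted p = 0.0653 and 0.145). Itgam, the alpha M chain of myeloid cells, differed by 0.75 and 0.64, Itgad by 0.57 and 0.41, and Itgae, which pairs with beta 7 to bind E-cadherin, by 0.34 and 0.09. Over the 7 leukocyte integrins the median difference was 0.16, 0.84 and 0.84 at 1, 4 and 8 weeks.

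Leukocyte markers varied in the same samples. The mean of 13 markers read 6.36, 8.14, 6.24, 5.99 and 5.96 at 4 weeks and 5.61, 6.93, 6.51, 7.10 and 5.70 at 8 weeks, against 5.56, 5.33, 5.23, 5.77 and 6.33 in controls. The highest were 4-week replicate 2 and 8-week replicates 4, 2 and 3, and the same 4 arrays were the highest for Itgal and Itgb2. Itgb7 did not follow them throughout: 8-week replicate 5, with a low marker mean, read 5.83, above 8-week replicates 2 and 3. Of the 13, Coro1a (1.30 and 1.38) and Cd163 (1.25 and 0.98) were higher at 4 and 8 weeks and Cd79b (2.14) at 8 weeks, and their median difference was 1.17 and 0.82. At 1 week 0 of the 13 were higher and Cd14 was lower by -1.17. Among all probe sets 11.2%, 7.52% and 6.96% were higher at 1, 4 and 8 weeks. Array signals have no true 0, so absence of a marker cannot be read from them, and the part of leukocyte number in the integrin values was not tested.

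**Figure D3:**
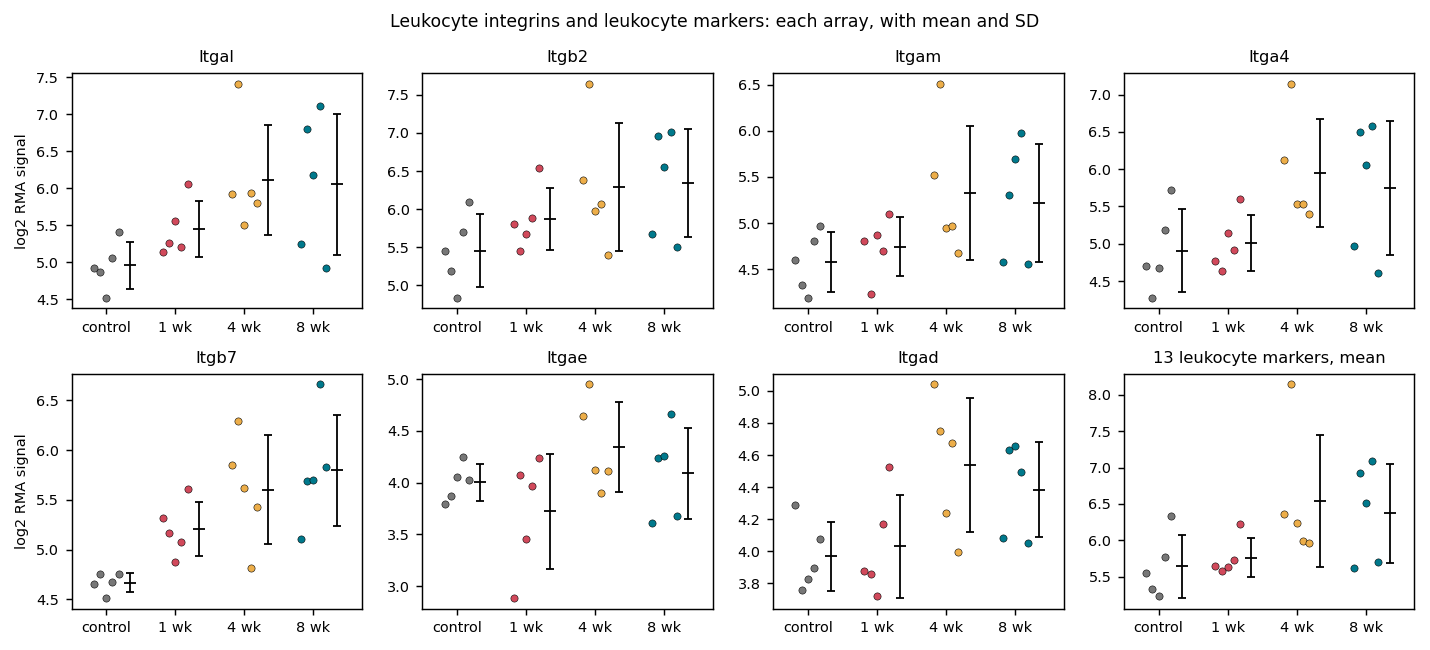
Log2 signal (y axis, each panel with its own scale) of the 7 leukocyte integrin subunits and the mean of 13 leukocyte markers for each array (points) of the control group and of each time after injury (x axis), with the mean and SD. The marker mean of 4-week replicate 2 (8.14) is above every other array, and the same array is the highest for Itgal (7.41) and Itgb2 (7.64).

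Itgb6 was the 1 member called lower. Its product pairs with alpha V on epithelial cells, where it binds fibronectin and activates latent TGF-beta (TC0300003178.rn.2). It read 6.73, 6.18, 6.60, 6.07 and 6.35 at 1 week and 6.17, 5.77, 6.57, 6.73 and 6.86 at 4 weeks, against 7.17, 7.60, 6.12, 7.65 and 7.77 in controls. All injured arrays at both times lay below 4 of the 5 controls, and control replicate 3 lay among them. The differences were -0.88 and -0.84 (SE 0.27, limma adjusted p = 0.0236 and 0.0421), 0.55-fold and 0.56-fold. At 8 weeks the difference of -0.66 did not pass (limma adjusted p = 0.118), with values of 7.02, 6.46, 6.28, 6.21 and 7.06.

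The Itgb6 calls were lost in 5 of the 20 settings that leave out 1 array at 1 week and in 7 of 20 at 4 weeks, but not when control replicate 3 was the array left out. Of 8 measured markers of the stratified epithelium, Cdh1, E-cadherin, was lower at all 3 times, by -0.84, -0.78 and -0.82, and the other 7, among them 4 keratins, made no call. The mean of the 8 ranged from 8.79 to 9.27 at 1 week and from 8.78 to 9.52 in controls. The part of the epithelial content in the Itgb6 values was not tested.

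The integrin that anchors epithelium to laminin showed no call. Itga6 and Itgb4, the 2 chains of the hemidesmosome receptor, differed from control by -0.06 and -0.26 at 1 week, by 0.15 and 0.08 at 4 weeks and by 0.24 and 0.21 at 8 weeks. Their smallest limma adjusted p was 0.244. The 95% intervals at 8 weeks ran from -0.06 to 0.55 for Itga6 and from -0.11 to 0.54 for Itgb4. Of 5 listed hemidesmosome and anchoring fibril genes 2 were measured, and neither passed.

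None of the 6 laminin chains passed the test at any time. Of all probe sets, 21.3%, 13% and 11.6% passed at 1, 4 and 8 weeks, and 6 chains are too few to set the absence of a call apart from these shares. Lamc1, the gamma 1 chain found in most laminins, read 7.73, 8.09, 7.91, 7.29 and 7.68 at 1 week, against 7.35, 7.38, 6.71, 7.44 and 7.80 in controls. The groups overlapped, and the difference of 0.40 had a limma adjusted p of 0.115 (95% interval 0.03 to 0.78). At 4 and 8 weeks Lamc1 was 0.22 and 0.08 from control.

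Lamb2, the beta 2 chain of vascular, muscle and synaptic basement membranes, was the laminin nearest to a call. It read 7.33, 7.04, 6.96, 7.57 and 7.57 at 8 weeks, against 6.71, 7.02, 6.18, 6.89 and 6.999 in controls, and only 8-week replicate 3 lay below the highest control. The difference was 0.54 (SE 0.19, limma adjusted p = 0.0659), and it was 0.39 and 0.34 at 1 and 4 weeks. Lamb2 passed at 1 week with quantile normalization, and at 8 weeks with quantile normalization, with median centring and without 4-week replicate 2. Lamc1 passed at 1 week with quantile normalization and without control replicate 5.

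Lama5, the alpha 5 chain of epithelial and vascular basement membranes, read 4.97, 5.02, 4.79, 4.71 and 5.15 at 1 week, against 5.13, 5.15, 5.23, 4.97 and 5.04 in controls. Its differences of -0.17, 0.05 and -0.09 lay within the spread of the arrays. Lama1, Lamb3 and Lamc3 differed from control by between -0.13 and 0.16 at the 3 times. By group means, Lama1, Lama5 and Lamc3 lay below the brightest background probe set in every group. The median over the 6 chains was 0.10, 0.10 and 0.05.

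**Figure D4:**
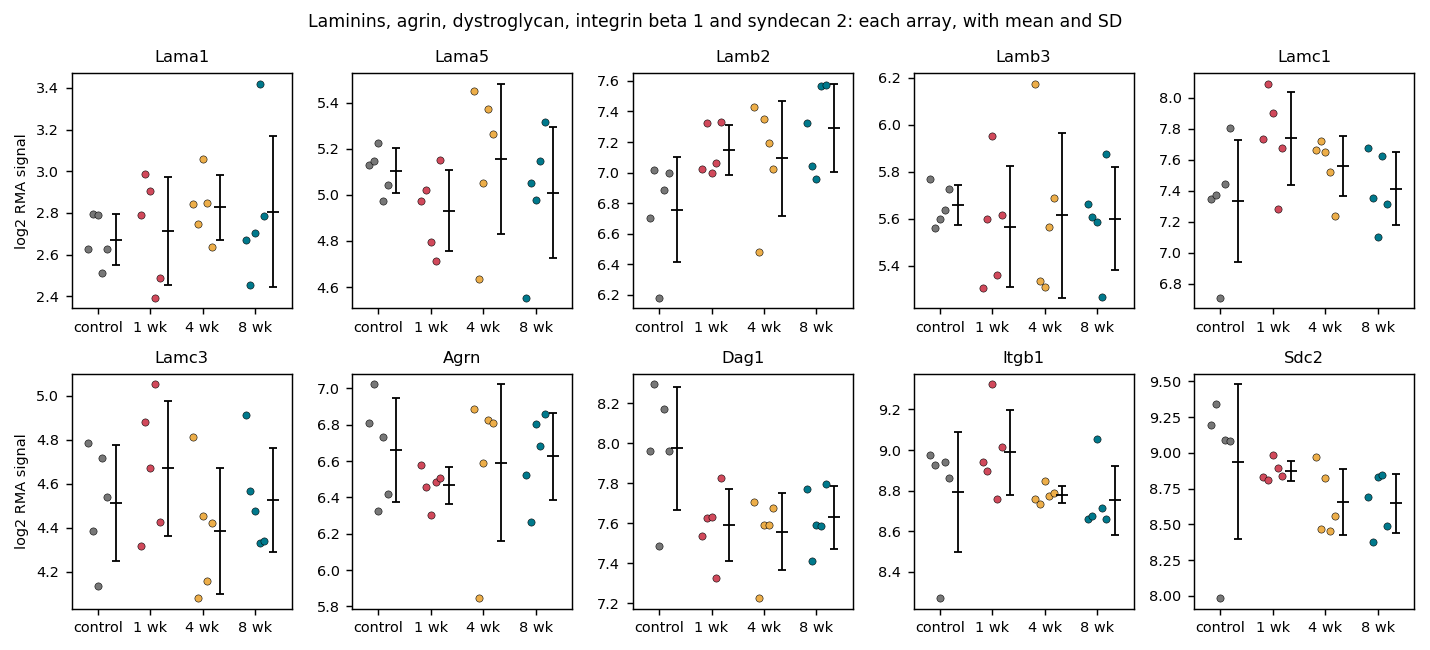
Log2 signal (y axis, each panel with its own scale) of the 6 laminin chains, agrin, dystroglycan, integrin beta 1 and syndecan 2 for each array (points) of the control group and of each time after injury (x axis), with the mean and SD. None of the 10 passed the test. Lamb2 has its highest mean at 8 weeks (7.29) and Dag1 its highest in controls (7.97).

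Dag1, which encodes dystroglycan, the laminin and agrin receptor of muscle and epithelium, did not pass the test, with negative differences at all 3 times. It read 7.54, 7.62, 7.63, 7.33 and 7.82 at 1 week and 7.71, 7.23, 7.59, 7.59 and 7.67 at 4 weeks, against 7.96, 8.29, 7.48, 8.17 and 7.96 in controls. Only control replicate 3 lay within the injured range. The differences were -0.39, -0.42 and -0.34 (SE 0.15, limma adjusted p = 0.066, 0.0654 and 0.137). Dag1 passed the test at all 3 times without control replicate 3, alone or together with 4-week replicate 2. It also passed at all 3 times with median centring and with array weights, and at 4 weeks with quantile normalization.

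Some partners of dystroglycan were lower. Of 11 measured genes of the dystrophin complex and of dystroglycan's glycosylation, 3, 2 and 3 were lower at 1, 4 and 8 weeks and 0 were higher, with medians of -0.47, -0.48 and -0.52. Among all probe sets 10.2%, 5.46% and 4.65% were lower at these times, and the counts were not tested against these shares. Dmd, dystrophin, was lower by -1.11, -1.34 and -1.37, and Sntb1, beta 1 syntrophin, by -0.99, -1.01 and -0.91. Pomt1, an enzyme that starts the sugar chain on dystroglycan, was lower by -0.90 at 1 week and -0.82 at 8 weeks. Muscle markers varied between arrays: the mean of 9 ranged from 9.51 to 9.80 at 1 week, 8.95 to 9.91 at 4 weeks and 7.18 to 10.30 at 8 weeks, against 7.97 to 10.66 in controls, and 0 of the 9 passed the test. The part of muscle content in these values was not tested.

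Agrn, agrin, which clusters acetylcholine receptors at the nerve ending and binds laminin, differed from control by -0.20, -0.07 and -0.04, with no call. Of the syndecans, heparan sulphate proteoglycans of the cell surface that assist integrins, Sdc2 read 8.83, 8.81, 8.98, 8.89 and 8.84 at 1 week, against 9.19, 9.34, 7.98, 9.09 and 9.08 in controls. The 5 injured arrays lay between control replicate 3 and the other controls, and the difference was -0.07 (95% interval -0.46 to 0.33). At 4 and 8 weeks Sdc2 differed by -0.28 and -0.29. Without control replicate 3, and also with array weights, it passed the test as lower at both times. Sdc1 and Sdc4 differed by between -0.15 and 0.15, and 0 of 6 other syndecans and glypicans passed.

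The remaining members made no call in any of the 6 comparisons. The collagen-binding alpha 1 and alpha 10 chains differed from control by between -0.41 and 0.30, and alpha 7, the laminin receptor of muscle, by between -0.11 and 0.17. Itgb1bp1 and Itgb1bp2, whose products bind the tail of beta 1, differed by between -0.54 and 0.20. Itgb3bp, also known as a centromere protein, differed by -0.46, -0.54 and -0.51 without passing (limma adjusted p = 0.0857, 0.0587 and 0.0808). Under alternatives it did pass as lower: at 1, 4 and 8 weeks with quantile normalization and with array weights. With median centring it passed at 4 and 8 weeks, and with the replicate block at 4 weeks.

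Between the injured groups 0 members passed the test, beside 0.126% of all probe sets for 4 weeks against 1 week, 0.233% for 8 weeks against 1 week and 0% for 8 weeks against 4 weeks (limma). At an unadjusted p under 0.05 there were 7, 5 and 1 of the 36 members, beside 9.08%, 9.97% and 2.51% of all probe sets. As a share, the members stood above all probe sets in both comparisons with 1 week and near them for 8 weeks against 4 weeks. That excess was not tested. At 4 weeks against 1 week the smallest p-values were those of Fn1 (-0.86), Itga8 (-0.63, limma adjusted p = 0.192) and Nid2 (-0.66, limma adjusted p = 0.192). The largest difference was that of Itga4 (0.93, limma adjusted p = 0.428). That a member passed at 1 week and not later, or the reverse, therefore does not show that its change differed between times.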

How the data were processed

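Total RNA from rat VFs was labelled with biotin and hybridized to Affymetrix Clariom rat arrays, 1 per animal (Clariom S in the methods, Clariom D in the labels). The deposited values are log2 signals that the authors made with Robust Multichip Analysis (RMA) in Transcriptome Analysis Console and a global scaling, and the labels' processing notes name Affymetrix Expression Console. Only these processed values were used, with no further normalization. Probe sets were named through GEO's platform annotation: 15049 had 1 gene symbol, 9822 had none or several or were controls, and all 15049 gene IDs were in RefSeq. The 131 manufacturer controls were left out of the tests.

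Groups came from the sample titles. The 15049 named probe sets and the 4 groups entered 1 linear model with moderated variances (the lmFit and eBayes functions of limma 3.58.1, run under R 4.3.3), from which 6 comparisons were read. The Benjamini-Hochberg adjustment covered all 15049 p-values of a comparison, with a threshold of 0.05. The model was tested on simulated data with planted changes of at least 1 log2 unit, in noise drawn independently for each value. The simulation held no smaller changes and no shifts shared by a whole array, so it says nothing about calls under that size. Precision is limited by 5 arrays per group. Apart from the reading of members against the background probe sets, signals of different probe sets were not compared with each other, since probe response differs. That reading has the same limit. The analysis of variance named in the study's methods was run as an alternative.

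Values per array are given for members that passed in any comparison and for 1 member of each role that had none. The others are given by range and count. The members, the lists of partners and markers, and the alternatives were chosen with earlier results of these data known. Replicate numbers in the titles carried no stated pairing. Pairs of arrays with the same number did not deviate together, as described in the closing section.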

Additional observations from a re-analysis of the deposited data

Results flagged for a closer look

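Among the 15 members given array by array, 60 groups of 5 arrays were searched for an array whose gap to its nearest neighbour took up more than Dixon's share of the group's range, and 5 were found. Chance gives about 1 in 20 groups. Itgal in 4-week replicate 2 read 7.41, with the next array at 5.93, and Dag1 in the same array read 7.23, with the next at 7.59. Itgb3 in 1-week replicate 2 read 5.93, with the next at 5.43. Itga5 in 1-week replicate 4 read 6.10, with the next at 6.54. Sdc2 in control replicate 3 read 7.98, with the next at 9.08.

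The hybridization control probe sets, which no comparison of genes used, were brighter on the injured arrays by 0.87 on average (two-sided exact permutation test over 15504 assignments, p = 6.4e-05, the smallest it can give). The cause was not tested.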

How the results depend on the processing

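The 15 calls of single members against control kept their direction under every alternative run. All 15 were lost with the hybridization control covariate, Itgal at 4 weeks also with an intensity trend, and Itgb3, Itgb5 and Nid2 at 1 week, Itgb6 at 4 weeks and Itgb5 at 8 weeks also with only the 2 groups compared in the fit. Leaving out control replicate 3 and 4-week replicate 2 together lost Itga5 and Itgb5 at 1 week and Itgal and Itgb7 at 4 weeks. A minimum log2 change of 1 lost every call but those of Itgal at 4 weeks and Itgb7 at 8 weeks. The causes were not tested. Counts of members called (8, 4 and 3 against control at 1, 4 and 8 weeks, 5 in the F test, 0 between injured groups) moved as follows. Quantile normalization gave 6 at 8 weeks (5 higher, 1 lower), 1 for 4 weeks against 1 week and 9 in the F test. Centring each array on its median gave 6 at 8 weeks (4 higher, 2 lower), 1 for 4 weeks against 1 week and 10 in the F test. Array weights, lowest for control replicate 3 (0.222) and 4-week replicate 2 (0.466), gave 7 at 4 weeks (3 higher, 4 lower), 10 at 8 weeks (6 higher, 4 lower), 1 for 4 weeks and 1 for 8 weeks against 1 week, and 13 in the F test. Leaving out control replicate 3 and 4-week replicate 2 together gave 8 at 8 weeks (4 higher, 4 lower) and 8 in the F test. A minimum log2 change of 1 left 0, 1 and 1 at 1, 4 and 8 weeks. The hybridization control covariate left 0, 0 and 0, and 0 in the F test. The study's analysis of variance with Benjamini-Hochberg adjustment gave 3.

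Leaving out 1 array at a time gave 3 to 9 members at 1 week, 2 to 6 at 4 weeks, 2 to 7 at 8 weeks, 0 to 1 for 4 weeks against 1 week and 2 to 8 in the F test. At 1 week there were 3 without 1-week replicate 2, 4 without control replicate 2 and 5 without 1-week replicate 1 or 3. At 4 weeks there were 2 without control replicate 2 or 4. At 8 weeks there were 7 without 4-week replicate 2 and 5 when control replicate 3 or 5 was left out, or replicate 5 of the 8-week group. For 4 weeks against 1 week there was 1 without control replicate 3 or 1-week replicate 4. The F test called 8 without control replicate 3, 2 without control replicate 2, and 3 without control replicate 1, 1-week replicate 2 or 3, or 4-week replicate 1 or 3. Replicate numbers did not pair the arrays: the deviations of 30 same-number pairs correlated between -0.268 and 0.317, 6 of them over 0.1, and 6 of 20 arrays correlated best with their own number. With the replicate block there were 8, 5 and 3 members at 1, 4 and 8 weeks and 3 in the F test. The share of all probe sets called moved too: 34.6%, 22.5% and 24% at 1, 4 and 8 weeks with array weights, and 17.5%, 6.35% and 7.38% with only the 2 groups compared in the fit. The remaining alternatives kept each count of members within 1.5 times. With no detection calls, it cannot be read whether the 15 members with group means below the brightest background probe set were expressed.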
